A study of Mus musculus with 3 samples.

Results

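Ser5-phosphorylated Pol_II was followed by ChIP-Seq over the interferon regulatory factor (IRF) genes of mouse macrophages. The members were chosen by name and comprised Irf1, Irf2, Irf3, Irf4, Irf5, Irf7, Irf8 and Irf9, that is 8 of the 22350 protein-coding genes on chromosomes 1 to 19 and X of the mm9 annotation. The cells were primary macrophages grown from the bone marrow of female Fvb mice (Fvb/Hsd in the study's methods), and were compared without treatment and after 2 h with 10 ng/ml LPS, the lipopolysaccharide of Gram-negative bacteria. There were 3 libraries, 1 of Ser5 from untreated cells, 1 of Ser5 after LPS, and 1 of input from untreated cells, that is chromatin DNA sequenced with no immunoprecipitation step. The sample labels, and the study's text where it describes the Ser5 libraries, name LPS alone. A panel of the study that displays Ser5 tags names LPS together with γIFN, and γIFN (interferon gamma) is itself an inducer of several IRF genes. Whether γIFN was present in the stimulated culture could therefore not be settled from the sources used here, and the library is called LPS below, after its label.

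IRFs are transcription factors that share a DNA-binding domain recognizing variants of the interferon-stimulated response element (ISRE). IRF3 and IRF7 are kept inactive until they are phosphorylated downstream of pattern-recognition receptors such as TLR4, the LPS receptor, and then switch on type I interferon genes. IRF9 is the DNA-binding subunit of the complex that carries the type I interferon signal to its target genes, IRF1 is an interferon-induced activator, IRF2 is its antagonist at many sites, IRF5 drives inflammatory cytokines, and IRF4 and IRF8 act with the ETS factor PU.1 in lymphoid and myeloid cells. Phosphorylation of the Pol_II tail at Ser5 accompanies the start of transcription, so tags at a transcription start site (TSS) and along a gene body report Pol_II that has been engaged there.

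Each member was measured over its whole gene record and over its TSS ±1 kb, the TSS being the 5′ end of the record. Tags were counted by their 5′ ends and given as TPM, a count divided by all the library's tags on the autosomes and X and multiplied by 1000000, and densities were also divided by length in kb. The untreated Ser5 library held 7616771 of these tags, the LPS library 6249819 and the input library 7533308. The files held tags of 45 bases for the untreated Ser5 library and 30 bases for the LPS library, while the study's methods give these lengths the other way round. The inducible chemokine gene Ccl5 had 24 tags in the library labelled untreated and 7803 in the library labelled LPS, and the labels were kept. With 1 library per condition no difference has a replicate check and no test was run. All intervals in parentheses after a value are 95% intervals that cover counting error only, and a gene counts as higher or lower when its TPM differed by at least 2 times among genes with 10 or more tags in the Ser5 libraries together. In such a population, fewer cells with Pol_II on a gene and less Pol_II per cell cannot be told apart.

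Macrophage marker genes were densely covered. Lyz2 (lysozyme) had a gene-body density of 105 TPM per kb in untreated cells, above 99.9% of coding genes, and the 6 macrophage markers examined (Csf1r, Emr1, Itgam, Cd68, Lyz2, Sfpi1) all lay above at least 77.9% of them. After LPS 4 of these 6 were at least 2 times lower, and Emr1 was 3.01 times (2.86 to 3.17) higher. Of 13 markers of B cells, T cells, neutrophils, dendritic cells and fibroblasts, Lck at 1.62 and Cd79a at 0.927 TPM per kb exceeded their input densities of 0.519 and 0.551 in untreated cells. In TSS ±1 kb Lck held 1 tag untreated and 3 after LPS, and Cd79a 17 and 7, so the Lck tags lay away from its annotated start. The other 11 lay below input on this scale, and the part of any such cells in the results was not tested.

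The promoters are shown for the 4 members that differed by at least 2 times over the gene body or the TSS, so that the values below can be set beside the letters of each start. Each is the mm9 reference from 250 bases before to 50 after the TSS, 5′ to 3′ on the strand of the gene, with matches to the motifs searched in capitals. Irf1 lies at chr11:53583266-53583565 (plus strand), Irf2 at chr8:47824849-47825148 (plus), Irf7 at chr7:148452331-148452630 (minus) and Irf8 at chr8:123260008-123260307 (plus).
Irf1: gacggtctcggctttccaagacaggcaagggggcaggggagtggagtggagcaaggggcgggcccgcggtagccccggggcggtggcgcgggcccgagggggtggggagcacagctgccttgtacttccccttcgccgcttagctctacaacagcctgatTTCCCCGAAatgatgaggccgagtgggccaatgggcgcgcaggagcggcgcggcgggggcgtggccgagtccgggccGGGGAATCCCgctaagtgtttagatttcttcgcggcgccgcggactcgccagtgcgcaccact
Irf2: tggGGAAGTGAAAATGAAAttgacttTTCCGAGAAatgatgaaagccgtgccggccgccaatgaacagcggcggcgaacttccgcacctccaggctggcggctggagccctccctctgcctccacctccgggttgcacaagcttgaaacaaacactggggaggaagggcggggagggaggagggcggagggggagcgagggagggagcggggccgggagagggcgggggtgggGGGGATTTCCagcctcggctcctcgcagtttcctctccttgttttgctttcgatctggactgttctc
Irf7: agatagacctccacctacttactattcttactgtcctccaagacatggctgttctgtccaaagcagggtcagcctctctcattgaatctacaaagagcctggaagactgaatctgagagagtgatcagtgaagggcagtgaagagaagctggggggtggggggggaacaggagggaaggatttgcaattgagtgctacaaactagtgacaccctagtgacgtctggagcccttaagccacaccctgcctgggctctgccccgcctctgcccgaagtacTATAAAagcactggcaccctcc
Irf8: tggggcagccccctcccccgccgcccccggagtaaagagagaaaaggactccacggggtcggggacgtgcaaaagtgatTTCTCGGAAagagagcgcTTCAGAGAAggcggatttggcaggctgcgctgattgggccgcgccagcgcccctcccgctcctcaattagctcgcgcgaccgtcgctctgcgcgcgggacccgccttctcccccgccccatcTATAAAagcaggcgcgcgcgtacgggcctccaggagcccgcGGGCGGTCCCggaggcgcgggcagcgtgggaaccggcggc

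The motifs searched on both strands were the ISRE core GAAANNGAAA, the composite PU.1-IRF element GGAANNGAAA, the STAT-binding GAS element TTCNNNGAA, the NF-kB forms GGGNNNTTCC and GGGNNNTCCC, and the TATA box TATAAA. The Irf1 promoter held a GAS match, TTCCCCGAA, from -90 to -82 and an NF-kB match, GGGGAATCCC, from -13 to -4 relative to the TSS. The Irf2 promoter held the PU.1-IRF match GGAAGTGAAA and the ISRE match GAAAATGAAA overlapping each other between -247 and -232, a GAS match from -224 to -216 and the NF-kB match GGGGATTTCC from -17 to -8. The Irf8 promoter held a pair of GAS matches, TTCTCGGAA from -171 to -163 and TTCAGAGAA from -153 to -145, a TATA box from -31 to -26 and an NF-kB form, GGGCGGTCCC, from 10 to 19. The only match in the Irf7 window at the annotated start was a TATA box from 28 to 33, downstream of that start. Where it was not the record start, the transcript start with most Ser5 tags within 1 kb, both libraries together, was also searched. At Irf7 this start lay 774 bp inside the record, and its window held an ISRE match, GAAACTGAAA, from -137 to -128. The Ser5 tags themselves were densest in the first 500 bp of the record, at 54.4 TPM per kb untreated and 134 after LPS. In the next 500 bp, which hold the start at 774 bp, they were at 10.5 and 32.3. Irf4 held the NF-kB form GGGACAGCCC and a TATA box, and no motif was matched at the annotated starts of Irf3, Irf5 and Irf9, while the Irf3 transcript start with most Ser5 tags, 301 bp inside the record, had a TATA match on the minus strand of its window. The starts picked in this way 473 bp inside Irf1 and 414 bp inside Irf9 had no match. That of Irf8, 27 bp inside, had the same matches as the record start. Over all 22350 coding promoters of this length 3.79% held the ISRE core, 2.89% the PU.1-IRF element, 7.94% the GAS element, 5.55% and 5.80% the NF-kB forms in the order given, and 13.4% the TATA box. These matches describe the letters of the window and not binding.

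The promoters also differed in CpG content. Irf8 held 38 CpG, Irf5 35 and Irf1 32, against a median of 11 over all coding promoters, while Irf7 held 3 and Irf9 held 6 at the annotated start. Irf2, Irf3 and Irf4 held 19, 18 and 11. The members that differed by at least 2 times over the body or the TSS thus had CpG-rich (Irf1, Irf8), intermediate (Irf2) and CpG-poor (Irf7) promoters.

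Before stimulation 7 of the 8 members had a Ser5 density above input over the gene body, with intervals that excluded a ratio of 1. The share of all coding genes that meet this rule was not measured. Gene-body densities in untreated cells ran from 18.6 TPM per kb (17.0 to 20.2) at Irf7 through 14.9 (13.9 to 16.1) at Irf9 and 11.4 (10.7 to 12.0) at Irf5 to 9.22 (8.75 to 9.71) at Irf8, 9.06 (8.15 to 10.0) at Irf3 and 8.24 (7.55 to 8.98) at Irf1. The intervals of Irf8, Irf3 and Irf1 overlapped, so their order is not resolved by counting. Irf2 was lower at 2.67 (2.56 to 2.79) and Irf4 lowest at 0.341 (0.25 to 0.455). The first 6 lay above between 95.7% and 98.7% of coding genes, Irf2 above 83.9% and Irf4 above 47.6%. The Ser5 to input ratio over the body lay between 7.75 and 14.0 for those 6 genes, was 2.46 (2.27 to 2.66) for Irf2 and 0.562 (0.382 to 0.816) for Irf4. Tags outside all Ser5 peaks make up 49.9% of the untreated Ser5 library and 95.5% of input, and scaling to them gave ratios of 14.8 to 26.7 for the 6 genes and 4.70 for Irf2. Without the first kb the ratio was 3.88 for Irf1 and 4.77 for Irf9. The scaling to tags outside peaks raised the Irf4 ratio to 1.07, so Irf4 is at background rather than below it on that scale.

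After LPS Irf7 was still the highest and Irf4 the lowest, while Irf1 stood higher and Irf8 lower in the order between them. Irf7 stood at 48.6 TPM per kb (45.8 to 51.5) and Irf1 at 41.6 (39.9 to 43.4), above 99.7% and 99.6% of coding genes. Irf9 followed with 24.5 (23.0 to 26.1), Irf5 with 14.3 (13.6 to 15.1) and Irf3 with 7.35 (6.45 to 8.35). Irf8 had come down to 3.78 (3.45 to 4.14), where its interval overlapped that of Irf2 at 3.43 (3.29 to 3.57), and Irf4 was at 0.362 (0.258 to 0.492). Both Ser5 libraries and input are set side by side in the plot of tag density.

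**Figure D1:**
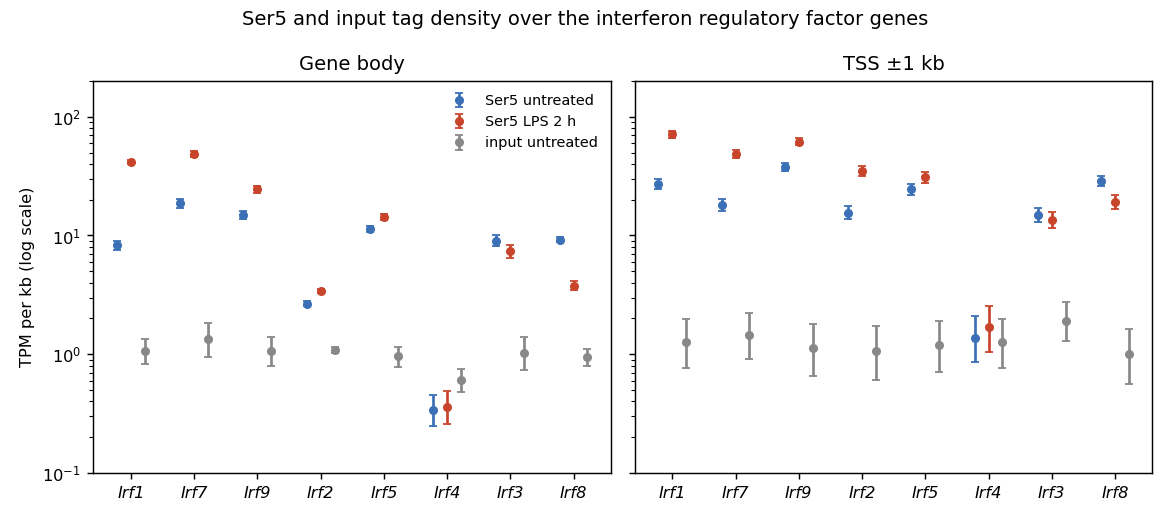
Tag density (TPM per kb, log scale) over the gene body (left) and TSS ±1 kb (right) of the 8 IRF genes in the 3 libraries, with points for the value and bars for its 95% Poisson interval (counting error only). Over the body Ser5 lies above input at every gene except Irf4, where input is at 0.607 TPM per kb and both Ser5 libraries lie below it on this scale of all tags (1.07 and 1.23 times input when scaled to tags outside peaks).

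Over the gene body 2 of the 8 members, Irf1 and Irf7, were at least 2 times higher after LPS, beside 5.83% of the 17386 coding genes tested. Irf8 was at least 2 times lower, beside 11.3% of those genes. At the TSS 3 members were higher, Irf1, Irf2 and Irf7, beside 5.58% of 12535 coding genes, and 0 were lower, beside 14.1%. The median ratio of LPS to untreated was 1.27 over the bodies of the members against 0.874 over all tested coding genes, and 1.45 against 0.831 at the TSS. Divided by the body median of all genes, the ratios were 5.78 for Irf1, 3.0 for Irf7, 1.88 for Irf9, 1.47 for Irf2, 1.44 for Irf5, 1.21 for Irf4, 0.929 for Irf3 and 0.470 for Irf8. Scaling the libraries so that the median coding gene has a ratio of 1 left these 3 body calls in place, while the share of higher among all called coding genes went from 34.1% to 51.7%.

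**Figure D2:**
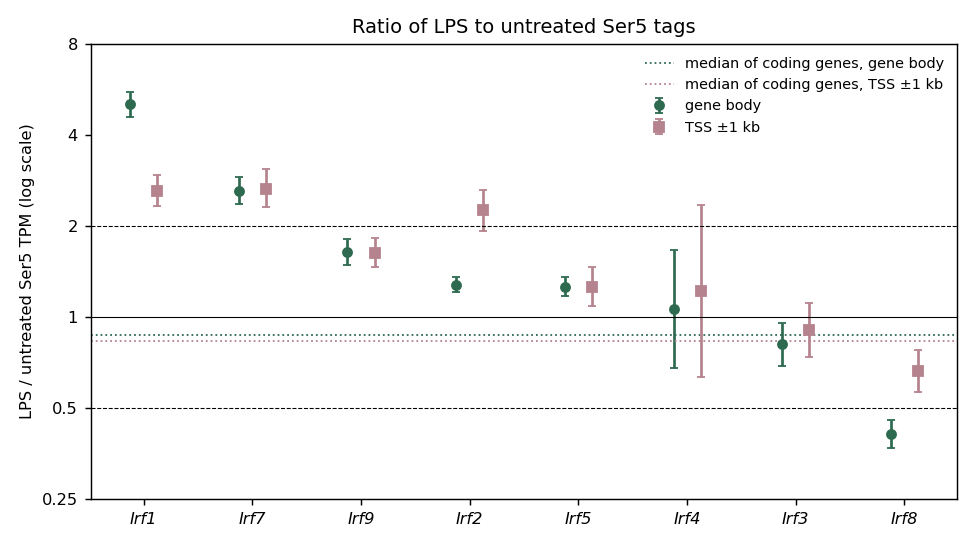
Ratio of LPS to untreated Ser5 TPM (log scale) over the gene body (circles) and TSS ±1 kb (squares) of the 8 IRF genes, with bars for the 95% interval from counting error. Dotted lines mark the medians of all tested coding genes (0.874 and 0.831) and dashed lines the limits of 2 times; Irf1 and Irf7 lie above the upper limit in both regions, Irf2 at the TSS alone, and Irf8 lies below the lower limit over the body alone.

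Irf1 had the largest difference of the family over the gene body. Its record (chr11:53583516-53591876, 8.361 kb) held 525 tags in untreated cells, 2175 after LPS and 67 in input, a ratio of LPS to untreated of 5.05 (4.59 to 5.56). Of the 17386 coding genes tested, 156 had a larger ratio. At the TSS the tags went from 416 to 893, a ratio of 2.62 (2.33 to 2.95), whereas over the rest of the record, from 1 kb after the TSS to its end, they went from 216 to 1496, a ratio of 8.44 (7.31 to 9.78). The difference was therefore larger along the gene than at its start, and the density at the TSS relative to the rest of the gene was 7.08 (6.00 to 8.39) before and 2.20 (2.02 to 2.39) after LPS. The deposited peaks covered 36% of the record in untreated cells and 99.6% after LPS.

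In 4 equal parts of the Irf1 record after its first kb, a division made after the values were seen, the ratios were 7.24 (5.62 to 9.45), 8.60 (6.38 to 11.8), 8.55 (6.45 to 11.5) and 10.2 (7.34 to 14.7) in the direction of transcription. Tags did not stop at the annotated end. The 5 kb after it held 149 tags in untreated cells, 1247 after LPS and 32 in input, a ratio of 10.2 (8.60 to 12.2), and the density there after LPS, 39.9 TPM per kb (37.7 to 42.2), was above the 32.5 (30.9 to 34.2) of the gene past its first kb. In steps of 2 kb from the end, LPS densities were 56.2, 40.6, 5.44 and 1.76 TPM per kb, against 4.79, 3.81, 2.49 and 0.919 in untreated cells, so that most of the excess lay within 4 kb of the end. The small record Gm17334 on the opposite strand lies inside Irf1 and had a ratio of 8.14 (5.66 to 12.0), which tags without strand information cannot separate from Irf1.

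Upstream of Irf1 a Ser5 peak region without any annotated gene lay at chr11:53575781-53578138, its midpoint 6557 bp before the TSS. It held 490 tags in untreated cells, 659 after LPS and 31 in input, so it stood at 15.6 times (10.9 to 23.3) input before stimulation and at 25.6 times (17.9 to 38.0) after it. Its ratio of LPS to untreated was 1.64 (1.46 to 1.85), below that of the TSS, and its untreated density of 27.3 TPM per kb equalled that of the Irf1 TSS window to the digits given. A smaller region between it and the gene, at chr11:53578162-53578822, was in the LPS list alone, with 10 and 31 tags. Peak regions were picked by the peaks of these libraries, so the ratio of a region found in 1 list only is a description.

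Irf7, whose product amplifies type I interferon production, had the other large difference. Its record (chr7:148448605-148452380, minus strand, 3.776 kb) held 534 tags in untreated cells, 1147 after LPS and 38 in input, a ratio of 2.62 (2.36 to 2.91). Unlike Irf1, the ratio was similar at the TSS, 2.66 (2.31 to 3.08) from 277 and 605 tags, and over the rest of the gene, 2.65 (2.30 to 3.06) from 287 and 625 tags. The density at the TSS relative to the rest was accordingly 1.34 in both libraries (1.13 to 1.58 untreated, 1.2 to 1.5 after LPS). By parts of the record past its first kb the ratios were 2.24 (1.75 to 2.89), 2.14 (1.60 to 2.89), 3.35 (2.47 to 4.59) and 3.38 (2.45 to 4.72). A single peak covered 99.4% of the record in untreated cells and the whole of it after LPS.

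Past the end of Irf7 the first 2 kb went from 151 to 413 tags, a ratio of 3.33 (2.76 to 4.04), and the next 2 kb from 55 to 70, a ratio of 1.55 (1.07 to 2.25). These tags lie in the end of Phrf1, a gene on the opposite strand that meets Irf7 tail to tail with an overlap of 45 bp. Phrf1 had a ratio of 1.75 (1.58 to 1.95) over its body and 1.21 (0.937 to 1.56) at its own TSS, which lies 37697 bp from that of Irf7. A separate peak region was centred 2823 bp before the Irf7 TSS, at chr7:148454739-148455667, with 72 tags in untreated cells, 141 after LPS and 3 in input, a ratio of 2.39 (1.78 to 3.22). It overlaps the 3′ part of the neighbouring gene Cdhr5, whose own TSS held 1 and 3 tags in the Ser5 libraries and 5 in input. Of the sequences of 30 bases in the TSS window of Irf7 15.5% occur more than once in the genome, against 0.811% or less at the other members, and the part of this in the values was not tested.

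Irf9 lay between the called members and the rest. Over its record (chr14:56222408-56228867, 6.460 kb) tags went from 735 to 989 with 52 in input, a ratio of 1.64 (1.49 to 1.81) that 1638 of the tested coding genes exceeded. The TSS window had the highest untreated density of the family, 37.9 TPM per kb (34.8 to 41.1), and a ratio of 1.63 (1.46 to 1.82). Past the first kb the ratio was 1.79 (1.5 to 2.15), and the TSS to rest ratio was 7.43 (6.33 to 8.73) before and 6.76 (5.92 to 7.73) after LPS. Peaks covered 40.2% of the record before and 84.3% after. The start of the Irf9 record overlaps the 3′ end of Rnf31, a ubiquitin ligase gene on the same strand, by 123 bp. Rnf31 covers 1123 bp of the Irf9 TSS window, so part of that window is shared with it. Rnf31 itself had a ratio of 1.94 (1.71 to 2.20). In bins of 500 bp the tags were densest in the second bin of the record, past the end of Rnf31. The transcript start with most Ser5 tags within 1 kb lay 414 bp inside the record. Of the 30-base sequences over the Irf9 record, 7.82% were repeated.

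**Figure D3:**
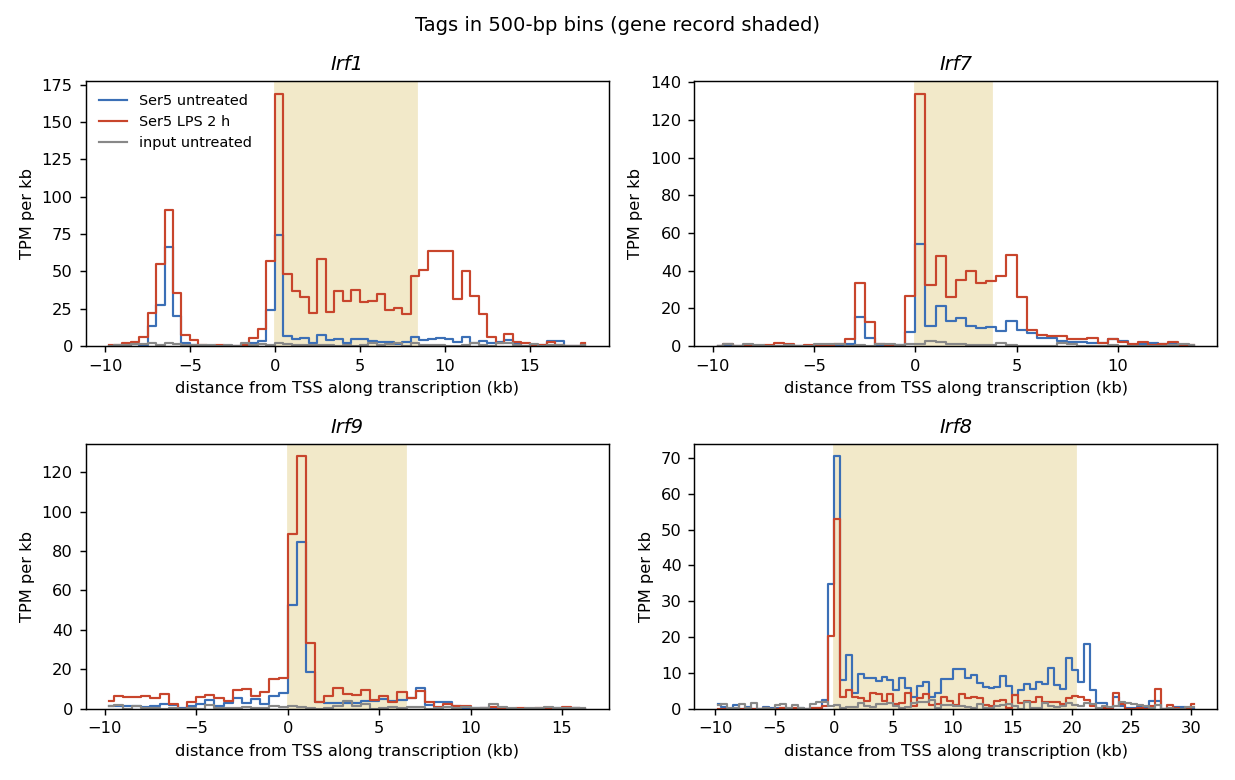
Ser5 and input tags in bins of 500 bp (TPM per kb) against distance from the TSS along the direction of transcription for Irf1, Irf7, Irf9 and Irf8, from 10 kb before the TSS to 10 kb after the gene end, with the gene record shaded. The LPS line stays above the untreated line along Irf1 and Irf7 and just past their ends, and the lines cross further out. It lies above the untreated line in most bins before and over Irf9, and below it along Irf8.

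Irf8 was the member that was lower after LPS. IRF8 is a lineage factor of macrophages and dendritic cells. Its record (chr8:123260258-123280594, 20.34 kb) held 1428 tags in untreated cells, 481 after LPS and 144 in input, a ratio of 0.411 (0.369 to 0.456), and 6.45% of tested coding genes had a lower ratio. The TSS window went from 441 to 240 tags, a ratio of 0.663 (0.564 to 0.778), and the rest of the gene from 1129 to 306, a ratio of 0.330 (0.290 to 0.375). The interval of the TSS did not overlap that of the rest, so the difference was smaller at the TSS than along the gene, and the TSS to rest density was 3.77 (3.37 to 4.22) before and 7.58 (6.37 to 9.0) after LPS. Along the gene past its first kb the ratios of the 4 parts were 0.383 (0.302 to 0.482), 0.333 (0.251 to 0.437), 0.323 (0.245 to 0.421) and 0.280 (0.213 to 0.365). The Ser5 to input ratio of the rest of the gene went from 8.03 (6.73 to 9.65) to 2.65 (2.16 to 3.27), so tags remained above input. The untreated peak list held 16 peaks over 90.1% of the record and the LPS list 3 peaks over 7.74% of it.

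The first 2 kb after the Irf8 end held 130 tags before and 21 after LPS, a ratio of 0.197 (0.118 to 0.314). The record Gm20388, which spans more than Irf8 and its neighbours on the same strand, had a ratio of 0.695 (0.684 to 0.707) and cannot be told apart from Irf8 within its record. When Gm20388 was set aside, a choice made after the data were seen, 32 peak regions lay within 100 kb of Irf8 and overlapped no other coding gene. Of these 16 lay in the record, 13 upstream and 3 downstream. Of the 13 upstream regions 11 had fewer TPM after LPS and 6 were at least 2 times lower, and 7 of them were in the untreated list alone, which favours a lower value. The share of lower values over all peak regions of the genome was not measured, so these counts have no background beside them. The untreated list held 53524 peaks and the LPS list 49438, and the median body ratio of tested coding genes was 0.874.

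The strongest of the upstream regions lay at chr8:123209012-123210789, centred 50358 bp before the Irf8 TSS, and was in both lists. It held 344 tags in untreated cells, 81 after LPS and 30 in input, a ratio of 0.287 (0.222 to 0.367), and stood at 11.3 times (7.80 to 17.1) input before stimulation. Its ratio was lower than that of the Irf8 TSS, whose interval did not overlap it. Some of the regions around it were lower by as much or more. The region centred 38998 bp before the TSS went from 59 to 8 tags, and the region centred 41854 bp before it from 19 tags to 0, for which the interval of the ratio reached up to 0.261. The region 16349 bp before the TSS had 28 and 20 tags, a ratio of 0.871 (0.465 to 1.60), and the region 60468 bp before it 22 and 20, a ratio of 1.11 (0.574 to 2.13). A region centred 61946 bp before the TSS, in the LPS list alone, went from 4 to 14 tags, a ratio of 4.27 (1.34 to 17.8). Downstream, the region just past the gene end (centred 21208 bp after the TSS) went from 106 to 19 tags, a ratio of 0.218 (0.127 to 0.358), and a small region 56549 bp after the TSS had 10 and 4 tags. The third downstream region, centred 27054 bp after the TSS and in both lists, was higher, with 11 and 16 tags and a ratio of 1.77 (0.773 to 4.22).

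**Figure D4:**
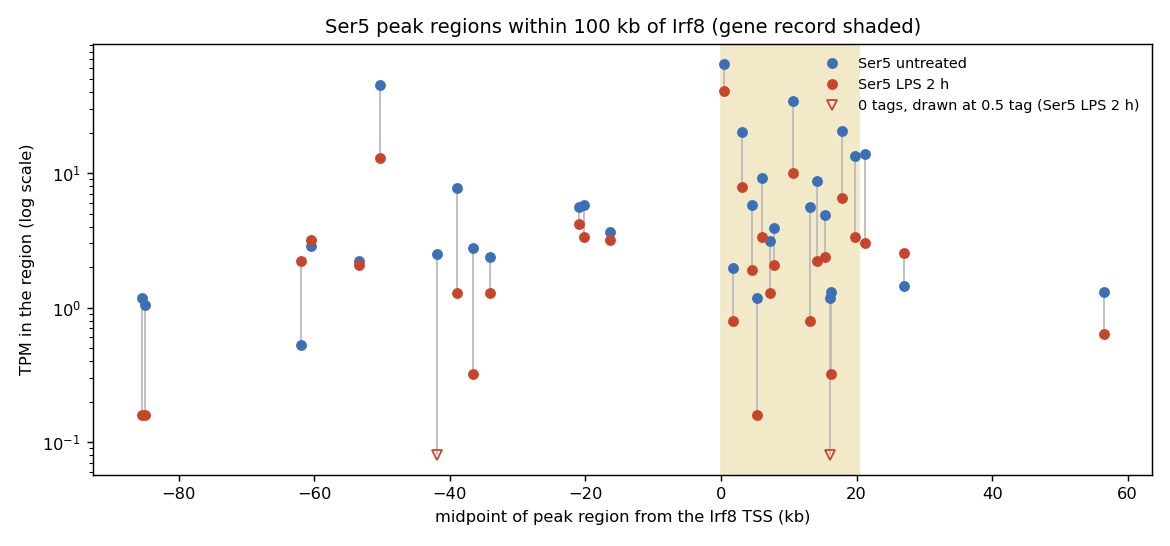
Ser5 TPM (log scale) in the 32 peak regions within 100 kb of Irf8 against the distance of their midpoints from the TSS, untreated and LPS values joined by a grey line, with the Irf8 record shaded and a count of 0 tags drawn at 0.5 tag as an open triangle. The region near 50 kb upstream holds 344 tags untreated and 81 after LPS, and 29 of the 32 regions lie lower after LPS. Of the 32 regions 16 are parts of the Irf8 record, 22 were in the untreated list alone and 1 in the LPS list alone, which favours lower values. The share of lower values over all peak regions of the genome was not measured.

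Irf2, whose product competes with IRF1, differed at its start more than along its length. At the TSS tags went from 238 to 439 with 16 in input, a ratio of 2.25 (1.92 to 2.64), which 569 of the 12535 tested coding genes exceeded. Over the record (chr8:47825099-47932812, 107.7 kb) they went from 2192 to 2309 with 883 in input, a ratio of 1.28 (1.21 to 1.36). The TSS to rest density was 6.18 (5.38 to 7.07) before and 11.5 (10.4 to 12.8) after LPS. A window of 500 bp on either side of the TSS gave a ratio of 1.98, just under the limit of 2 times. The lincRNA Gm16675 begins 230 bp from the Irf2 TSS on the opposite strand, so part of the window is shared with it.

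The difference at Irf2 was graded along the gene. In steps of 10 kb from the TSS the first ran at 1.91 (1.71 to 2.15) and the second at 1.69 (1.35 to 2.12), the next were 1.26 (1.02 to 1.56), 1.31 (1.07 to 1.61) and 1.18 (0.924 to 1.5), and the step from 50 kb was 0.725 (0.567 to 0.922). Further in, the steps from 60, 70, 80 and 90 kb gave 1.48 (1.13 to 1.95), 0.688 (0.549 to 0.859), 0.758 (0.565 to 1.01) and 0.859 (0.644 to 1.14), and the last, from 100 kb to the end, 1.26 (1.07 to 1.47). The early part of the gene was thus higher after LPS, while the later part was mixed. Densities past the first 10 kb lay between 1.26 and 6.74 TPM per kb in the Ser5 libraries against 0.823 to 1.41 in input.

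The peak lists along Irf2 followed the same gradient, as they come from the same tags. Of 12 peak regions, all in introns, centred 1 to 26 kb from the TSS, 9 were in the LPS list alone, 2 in the untreated list alone and 1 in both. Of 10 intronic regions centred 26 to 90 kb in, 2 were in the LPS list alone, 5 in the untreated list alone and 3 in both, and the 3 regions near the gene end were in both. Past the end the regions were lower after LPS. The region at chr8:47937581-47938290 held 109 tags in untreated cells, 14 after LPS and 7 in input, a ratio of 0.157 (0.0828 to 0.274), and it lay 112836 bp from the Irf2 TSS with no annotated gene over it. All 11 peak regions after the Irf2 end within 50 kb of it that overlap no other coding gene had fewer TPM after LPS, and for 7 of them the interval lay below 1. Of these 11 regions 7 were in the untreated list alone and 0 in the LPS list alone, which favours lower values. Most of the 11, centred from 128685 to 153287 bp after the Irf2 TSS, lie nearer to the TSS of Enpp6. The share of lower values over all peak regions of the genome was not measured.

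**Figure D5:**
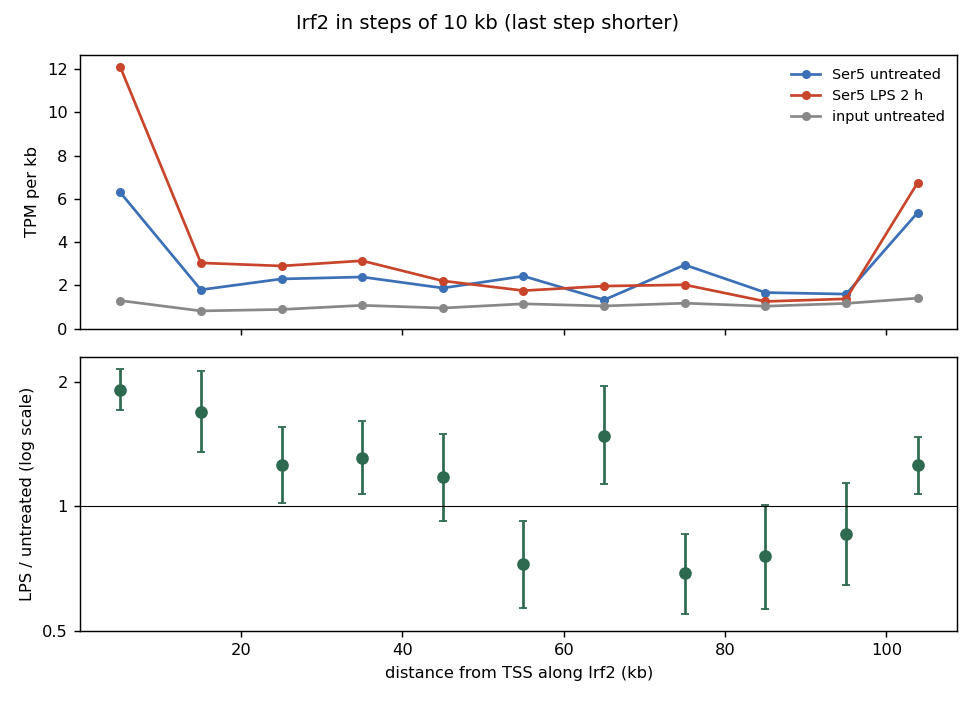
Tags over Irf2 in steps of 10 kb from the TSS (the last step is shorter), as TPM per kb in the 3 libraries (upper panel) and as the ratio of LPS to untreated on a log scale with 95% counting intervals (lower panel). The ratio is 1.91 in the first step and 0.725 in the step that begins at 50 kb.

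Irf5 was high in both conditions. Tags over its record (chr6:29476625-29491869, 15.24 kb) went from 1318 to 1363 with 110 in input, a ratio of 1.26 (1.17 to 1.36), and at the TSS from 372 to 386, a ratio of 1.26 (1.09 to 1.46). The TSS to rest density was 2.53 (2.24 to 2.85) before and 2.63 (2.33 to 2.95) after LPS, and the intervals overlapped. Peaks covered 83.7% and 89.3% of the record. The region just upstream, at chr6:29472818-29474780 and centred 2826 bp before the TSS, moved the other way, from 158 to 82 tags with 32 in input, a ratio of 0.632 (0.478 to 0.831). The last 1043 bp of Irf5 overlap the end of Tnpo3, an importin gene on the opposite strand with a ratio of 1.08 (0.967 to 1.22).

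Irf3 was slightly lower after LPS, close to the median gene. Tags over its record (chr7:52253018-52258218, 5.201 kb) went from 359 to 239 with 40 in input, a ratio of 0.811 (0.686 to 0.958), and 42.0% of tested coding genes had a lower ratio. At the TSS they went from 228 to 169, a ratio of 0.903 (0.736 to 1.11). The gene starts head to head with Bcl2l12, an apoptosis-related gene whose record overlaps the whole TSS window of Irf3 and whose TSS lies 1064 bp away, and the TSS tags of these genes cannot be told apart. Bcl2l12 had a body ratio of 0.818 (0.681 to 0.980). Over Irf3 past its first kb, largely outside Bcl2l12, the ratio was 0.753 (0.608 to 0.931), and in the last of its 4 parts 0.533 (0.329 to 0.844), next to the end of Scaf1 on the opposite strand, which had a ratio of 0.952 (0.819 to 1.11).

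Irf4, which is best known in lymphocytes, was near background. Its record (chr13:30841095-30858796, 17.70 kb) held 46 tags in untreated cells, 40 after LPS and 81 in input, a ratio to input of 0.562 (0.382 to 0.816) and 0.595 (0.397 to 0.880) on the scale of all tags, and of 1.07 and 1.23 when scaled to tags outside peaks. The ratio of LPS to untreated, 1.06 (0.676 to 1.66), had an interval on both sides of 1, so a difference was not detectable at this depth. The TSS window held 21 tags in each Ser5 library and 19 in input. A short peak region over the TSS, at chr13:30840900-30841261, was nevertheless in both lists, with 19 tags in untreated cells, 11 after LPS and 3 in input. The Irf4 peaks had scores of 80.7 in the untreated list and 66.73 in the LPS list, near the lowest score of 50.0 in either list, where the score is minus 10 times log10 of the peak's p-value. In each list all 8 members had a peak in the gene body, beside 53.3% of coding genes in untreated cells and 50.6% after LPS, and all 8 had 1 at the TSS, beside 48.0% and 45.9%. Irf4 was the member without a peak when a p-value of at most 1e-10 was required.

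The ratio of TSS to rest density separated the members further. It was lower after LPS at Irf1, higher at Irf2 and Irf8, and had overlapping intervals in the libraries at Irf3, Irf4, Irf5, Irf7 and Irf9. At Irf2 and Irf8 the same direction came from opposite differences, since the Irf2 TSS was higher after LPS over a body that differed less, and the Irf8 body was lower by more than its TSS. In input the ratio lay between 0.976 and 2.25, highest at Irf3 with 2.25 (1.29 to 3.96), where the Ser5 values of 2.05 (1.70 to 2.48) and 2.46 (1.96 to 3.10) lay on either side of it with overlapping intervals.

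The genes with the values most like each member were found over 4 values, the densities over body and TSS in the Ser5 libraries, as Euclidean distance on log2 of TPM per kb plus 0.1. The nearest to Irf1 were Apobr at 0.456 and Atf3, a stress-induced transcription factor, at 0.467. Irf7 was nearest to the chemokine gene Ccl9 at 0.544 and to Marcks at 0.686, and Irf9 to Plk2 at 0.434 and to Trim25, a ubiquitin ligase of antiviral signalling, at 0.446. For Irf2 they were Azi2 at 0.422 and Nucks1 at 0.440, and for Irf8 Sirt7 at 0.307 and Sepx1 at 0.320. Irf5 had the closest neighbour, Ncf4, a subunit of the phagocyte oxidase, at 0.103, followed by Fhl3 at 0.150. Irf3 lay nearest to 2810428I15Rik at 0.127 and Amigo3 at 0.140, and Irf4 to Adrbk2 at 0.272 and Itga10 at 0.300.

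Genes around the family in the pathway were read with the same rule over the gene body, for which 5.83% of coding genes were higher and 11.3% lower. Of 10 relatives and binding partners 3 were at least 2 times higher and 2 lower, with a median ratio of 1.08. Stat2, which encodes a partner of IRF9, went from 766 to 1376 tags, a ratio of 2.19 (2.00 to 2.39). At the other end Irf2bp2, a co-repressor partner of IRF2, went from 714 to 112 tags, a ratio of 0.191 (0.155 to 0.234). Of 17 genes of signalling to the family 7 were higher and 2 lower, with a median of 1.03. The RNA sensor gene Ifih1 had a ratio of 8.21 (7.26 to 9.31), the kinase gene Irak2 5.26 (4.94 to 5.61) and the adaptor gene Mavs 0.462 (0.372 to 0.570).

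Of 8 genes of interferon and its receptors 3 were higher and 0 lower, with a median of 1.08. Ifnb1, the interferon beta gene, went from 3 tags to 26, a ratio of 10.6 (3.24 to 54.5). The receptor kinase gene Jak2 had a ratio of 5.16 (4.55 to 5.87), and the receptor gene Ifnar1 the smallest of the list, 0.656 (0.576 to 0.747). All 15 textbook target genes measured were at least 2 times higher, with a median of 27.6. Ccl5 had the largest ratio, 396 (266 to 619), followed by Rsad2, which encodes the antiviral protein viperin, at 90.6 (79.0 to 105), and Tap1, a peptide transporter gene, had the smallest at 3.78 (3.32 to 4.31). The largest ratio of the IRF genes themselves, 5.05 at Irf1, thus lay between the smallest and the median of their target genes. These lists were chosen with earlier results of the data known, and Ciita, Psmb9 and Irf2bpl were not measured because their symbols did not name a single record.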

How the data were processed

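Ser5 Pol_II ChIP-Seq and input DNA of mouse bone marrow-derived macrophages were measured in 3 libraries, each assigned to its condition from the sample labels. According to the study's methods, the authors shortened the reads from their 3′ side before mapping with Bowtie to mm9 (unique hits, no more than 2 mismatches), and called peaks per library against input with MACS at a p-value of 1e-05. Tool versions are not given in the sources used here. The authors deposited the aligned tags, duplicates kept, and peak lists whose score is minus 10 times log10 of the MACS p-value.

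Tags on chromosomes 1 to 19 and X were counted by 5′ end, with start and end read as 1-based, over GENCODE M1 records of mm9 and over the TSS ±1 kb, and a deposited peak counted when it overlapped by at least 1 bp. Intervals (95%) are exact Poisson intervals for counts and exact conditional intervals for ratios of counts, and cover counting error only, since PCR reads are not independent molecules. For calls of size, 0 tags were set to 0.5. Genes named were the members, genes overlapping them, the 2 nearest in density to each, and of each pathway list the 2 highest and the 1 lowest by body ratio. A gene that this rule names is not reported here. Other loci were named after their values were seen, as were peak regions near the members, steps along the genes and the set-aside record Gm20388. The members and lists were chosen with earlier results of these data known. Alternatives were a single tag kept at each position and strand, a shift of tags by 75 bp, scaling to tags outside the peaks, other windows, other transcript starts, other minimum counts and stricter peaks, and, added after the data were seen, scaling to the median coding gene. Python 3.11.15, numpy 2.4.6, pandas 2.3.3, scipy 1.17.1 and matplotlib 3.10.9 were used, and simulated data were used to test how tags are counted and intervals computed.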

Additional observations from a re-analysis of the deposited data

How the results depend on the processing

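Of the 3 gene-body calls (Irf1 and Irf7 higher, Irf8 lower) each held under all 5 alternatives, with ratios of 5.11 to 8.44 for Irf1, 2.64 to 3.0 for Irf7 and 0.330 to 0.470 for Irf8. At the TSS the calls of Irf1 (2.29 to 2.99) and Irf7 (2.52 to 3.05) held under all 6 alternatives, and that of Irf2 (1.98 to 2.57) under 5 of 6, the exception being the window of 500 bp. Irf4 over the body (0.896 without the first kb) and Irf3 at the TSS (1.03 with the median coding gene set to 1) were the members whose direction turned, and neither was called. Scaling to tags outside the peaks multiplied every ratio of LPS to untreated by 1.08 (0.11 on the log2 scale). With a single tag kept at each position and strand, some TSS to rest densities fell below their counting intervals. That of Irf1 was then 5.68 before and 1.67 after LPS, and that of Irf8 3.08 and 6.33. After LPS it was 1.15 at Irf7 and 2.31 at Irf5. The ratio was still lower after LPS at Irf1 and higher at Irf8. Counts over all coding genes moved by more than 1.5 times in these cases, as the set of genes tested or the scale changed: with the median coding gene set to 1, 1300 rather than 1960 were lower over the body; with at least 1 tag, 1767 rather than 1014 were higher over the body, and 2979 rather than 700 higher and 3683 rather than 1771 lower at the TSS; with at least 50 tags, 382 were higher and 1179 lower at the TSS. When the midpoint of a peak had to lie inside the TSS window, 5 rather than 8 members had a peak in untreated cells and 6 after LPS. The share of all coding genes under this midpoint rule was not measured. No paired analysis was possible because each condition has 1 library. What depth limits is Irf4, with 46 and 40 tags, and the small peak regions.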
